A study of Mus musculus with 4 samples.

Results

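Myeloid C-type lectin receptors and the adaptors that signal for them were followed in whole skin of mice with and without a conditional deletion of protein phosphatase 6. The group holds 10 genes of the 47725 in the deposited table, found by gene name with 1 row each: the receptor genes Clec4d, Clec4e, Clec4n, Clec7a, Clec5a and Clec10a, the adaptor genes Fcer1g and Tyrobp, the kinase gene Syk and the scaffold gene Card9. Of these genes Clec4d (ENSMUSG00000030144), Clec4e (ENSMUSG00000030142), Clec4n (ENSMUSG00000023349), Clec7a (ENSMUSG00000079293) and Clec5a (ENSMUSG00000029915) lie on chromosome 6 and Clec10a (ENSMUSG00000000318) on chromosome 11. Fcer1g (ENSMUSG00000058715), Tyrobp (ENSMUSG00000030579), Syk (ENSMUSG00000021457) and Card9 (ENSMUSG00000026928) lie on chromosomes 1, 7, 13 and 2. The genes were picked with their difference between the genotypes known, so their levels and fold changes are given as a description and not as a test. Messenger RNA was sequenced from skin of 17-week-old mice on the C57BL/6J background. The control mice are labelled PP6fl/fl, with floxed alleles of the phosphatase gene, which the cKO mice carry too. In the title of the series the floxed allele of the cKO mice is joined with K5. This is taken to mean the keratin 5 promoter, which is active in basal keratinocytes. Which cells of the skin made the transcripts followed here was not measured. There were 2 libraries per group, called replicates 2 and 3 after the labels. Whether they come from separate animals is not said, so SDs and p-values describe the spread among libraries and may be technical.

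C-type lectin receptors of myeloid cells recognise sugars and lipids of fungi and mycobacteria and some products of damaged cells. Clec4e (Mincle), Clec4d (the macrophage C-type lectin) and Clec4n (Dectin-2) have no signalling motif of their own and pair with the Fc receptor gamma chain, the product of Fcer1g. Clec5a pairs with DAP12, the product of Tyrobp, whereas Clec7a (Dectin-1), the receptor for beta-glucans, carries a tyrosine motif in its own tail. Phosphorylated motifs recruit the kinase Syk, which acts through Card9, Bcl10 and Malt1 on NF-kappaB. Clec10a, a galactose-type lectin of macrophages and dendritic cells, takes up glycosylated ligands and lacks that motif.

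The 3 receptor genes Clec4n, Clec4d and Clec4e follow each other on chromosome 6, with 0 other protein-coding genes between Clec4n and Clec4d and 0 between Clec4d and Clec4e (GENCODE M21). The promoters of Clec4d and Clec4e are shown because these neighbouring genes moved most alike, and that of Clec7a because it is a receptor gene on the same chromosome whose groups overlapped. The sequences run 5′ to 3′ from 250 bases before to 50 bases after the RefSeq transcript start (build GRCm38.p6, chr6:123261857-123262156 on the plus strand, chr6:123289822-123290121 on the minus strand and chr6:129472736-129473035 on the minus strand). Capitals mark GAGGAA, the core recognised by the myeloid transcription factor PU.1, or its reverse complement TTCCTC.
Clec4d: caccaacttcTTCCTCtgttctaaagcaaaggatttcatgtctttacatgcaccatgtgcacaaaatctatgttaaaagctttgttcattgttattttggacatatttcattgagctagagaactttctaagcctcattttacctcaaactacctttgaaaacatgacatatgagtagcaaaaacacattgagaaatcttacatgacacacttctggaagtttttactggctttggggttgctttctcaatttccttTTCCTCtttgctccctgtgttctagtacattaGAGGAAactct
Clec4e: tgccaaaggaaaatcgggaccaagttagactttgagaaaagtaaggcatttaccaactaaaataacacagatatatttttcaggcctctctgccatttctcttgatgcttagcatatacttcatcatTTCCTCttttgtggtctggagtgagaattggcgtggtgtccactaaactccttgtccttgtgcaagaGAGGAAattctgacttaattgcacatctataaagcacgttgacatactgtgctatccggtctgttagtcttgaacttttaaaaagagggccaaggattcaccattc
Clec7a: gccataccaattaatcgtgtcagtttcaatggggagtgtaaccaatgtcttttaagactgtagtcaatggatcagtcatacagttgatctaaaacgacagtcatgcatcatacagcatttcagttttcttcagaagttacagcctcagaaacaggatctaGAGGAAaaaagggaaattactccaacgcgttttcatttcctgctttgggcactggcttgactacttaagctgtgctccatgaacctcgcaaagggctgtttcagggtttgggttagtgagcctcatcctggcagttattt
The core occurred 3 times in the Clec4d window, 2 times in that of Clec4e, 2 times in that of Clec5a and 1 time each in that of Clec7a and in 1 of the 2 promoters of Syk, and not in those of Fcer1g and Card9. It was present in 28.3% of all 32851 promoters of the same length. The C/EBP half-sites TTGNNCAA (the same on both strands) were found in Clec4e as TTGTGCAA, from 66 to 59 bases before the start, next to a PU.1 core that begins 56 bases before it and does not overlap it. They occur in 6.4% of all promoters. GGGANNNNCC, a core of NF-kappaB sites, was found on either strand in 20.7% of all promoters and among the members in that of Fcer1g. Of the 10 members 7 matched the RefSeq promoter table. These are matches of letters, chosen after the sequences were seen, and not binding sites.

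The deposited counts summed to between 15837136 and 23407731 per library. Keratinocyte markers (Krt5, Krt14, Krt1, Krt10 and Trp63) were present in every library, as the label skin requires. Their summed level was 17118 and 15430 CPM in control and 31627 and 38234 CPM in cKO. Krt14, Krt1 and Krt10 were higher in both cKO libraries, Trp63 lower and Krt5 overlapping. By edgeR quasi-likelihood 0 of 5 were called (2 higher at an unadjusted p under 0.05, and 2 higher by DESeq2). Over all tested genes 10.3% were higher and 9.69% lower at that unadjusted p, and 5.74% and 4.11% by DESeq2. The part of this keratinocyte difference in the levels of the members was not tested. Ppp6c, the floxed gene, stood at 57.8 and 61.8 CPM in control (replicates 2 and 3, here and throughout) and 62.1 and 50.1 CPM in cKO. Because the count is 1 value for the gene over all cells of the skin, it is no check of the deletion.

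Clec4d and Clec4e were close to absent from control skin and abundant in cKO skin. Clec4d, an endocytic receptor that also brings Mincle to the cell surface, had 8 and 7 counts in control replicates 2 and 3 and 941 and 548 counts in cKO replicates 2 and 3. On the CPM scale (counts relative to the library total, scaled by TMM) these were levels of 0.33 and 0.31 against 59.9 and 32.7. The lower cKO library thus lay far above both control libraries. Clec4e, the receptor for mycobacterial cord factor, had 6 and 5 counts in the control libraries and 609 and 397 in cKO, or 0.25 and 0.22 against 38.7 and 23.7 CPM. Again the groups did not overlap and cKO replicate 2 was the highest. The log2 fold changes of cKO over control were 7.15 ± 0.47 for Clec4d and 7.01 ± 0.42 for Clec4e (SE, n = 2 per group). Pooled over libraries, the scaled count ratio was 143 for Clec4d with a 95% counting interval from 86.4 to 256. It was 132 for Clec4e with an interval from 73.3 to 265. These exact intervals cover counting error only, and their width comes from the few control counts.

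Clec4n, which binds fungal mannans, was detectable in control skin and much higher in cKO. Its level was 2.78 CPM in either control library and 28.2 and 37.4 CPM in cKO replicates 2 and 3. The groups did not overlap, and here cKO replicate 3 was the higher library. The mean level was 2.78 ± 0.0060 CPM in control against 32.8 ± 6.48 CPM in cKO (SD, n = 2 per group), and the log2 fold change 3.56 ± 0.25 (SE). The control SD is smaller than counting error, as the control counts were 67 and 63. The 95% counting interval of their scaled ratio ran from 0.70 to 1.44. Clec5a, a receptor of monocytes, macrophages and neutrophils, stood at 1.99 and 1.98 CPM in control and 8.21 and 9.49 CPM in cKO. Its groups did not overlap either, and the libraries of each group lay close together. The log2 fold change was 2.15 ± 0.28.

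The remaining receptor genes overlapped between the groups. Clec7a stood at 9.18 and 16.5 CPM in control replicates 2 and 3 against 18.5 and 15.04 CPM in the cKO replicates, for a log2 fold change of 0.38 ± 0.35. Control replicate 3 lay between the cKO libraries. The control libraries differed from each other by a scaled ratio of 1.79 (95% counting interval 1.52 to 2.13), which was larger than the ratio of 1.31 between the group means. Clec10a stood at 42.5 and 56.5 CPM in control against 53.6 and 58.4 CPM in cKO, for a log2 fold change of 0.18 ± 0.19. Without control replicate 2 this value was -0.017, so Clec10a has no settled direction. The value of Clec7a ran from 0.02 without control replicate 2 to 0.88 without control replicate 3.

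The adaptors and the kinase were abundant in control skin and modestly higher in cKO. Fcer1g stood at 27.4 and 35.95 CPM in control replicates 2 and 3 against 55.4 and 50.8 CPM in the cKO replicates, for a log2 fold change of 0.74 ± 0.19 (SE, n = 2 per group). Tyrobp stood at 28.0 and 42.4 CPM in control against 69.3 and 52.0 CPM in cKO, for a log2 fold change of 0.78 ± 0.27. In neither gene did the groups overlap, but the nearest libraries were close: control replicate 3 and cKO replicate 3 of Tyrobp differed less than the control libraries did. Syk stood at 37.8 and 44.1 CPM in control against 53.0 and 67.6 CPM in cKO, for a log2 fold change of 0.56 ± 0.19. Its groups did not overlap. Card9 stood at 4.9 and 8.02 CPM in control against 7.89 and 10.4 CPM in cKO, for a log2 fold change of 0.51 ± 0.36, and its groups overlapped. Leaving out control replicate 2 or 3 gave 0.19 or 0.92 for Card9, and 0.51 or 1.12 for Tyrobp. Exons of Card9 overlap an annotated gene on the opposite strand, Gm13562, and reads of the pair cannot be told apart unless strand was used in counting.

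**Figure D1:**
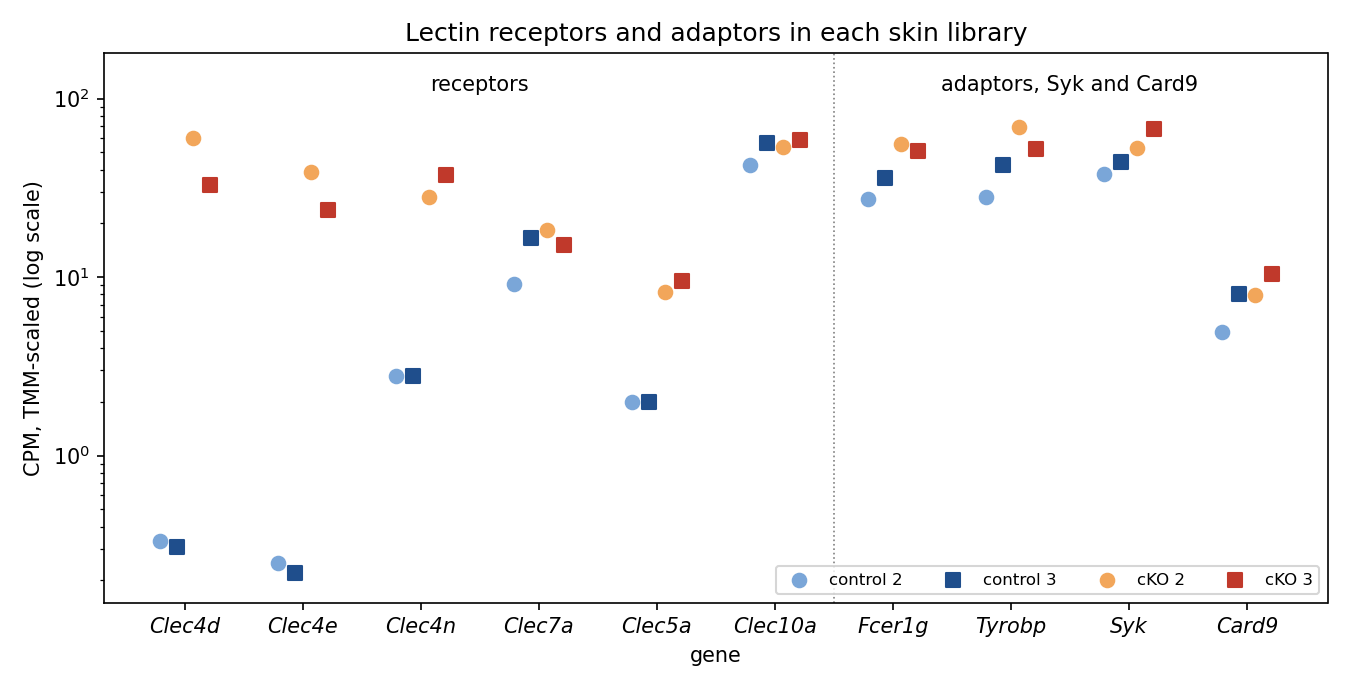
TMM-scaled CPM on a log axis of the 10 genes in each of the 4 libraries, with 1 point per library, circles for replicate 2 and squares for replicate 3. Clec4d and Clec4e lie below 1 CPM in control and above 20 CPM in cKO, whereas Clec7a, Clec10a and Card9 overlap between the groups.

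All 10 genes passed the filter on low counts, Clec4d and Clec4e through their cKO counts, so their presence among the tested genes already required a difference. The edgeR quasi-likelihood test over all genes, with Benjamini-Hochberg adjustment, called 3 of the 10 higher in cKO, namely Clec4d, Clec4e and Clec4n, where 0.74% of the 17440 tested genes were called higher, 0.35% lower and 1.09% in either direction. DESeq2 called 4 of the 10 higher, against 5.74% of its tested genes higher, 4.11% lower and 9.85% in either direction. Both cKO libraries lay above both control libraries in 7 of the 10, as they did in 25.1% of tested genes, with 27.7% the other way round. Nothing is read from these counts, because the genes were chosen on this contrast. Without control replicate 2, and likewise without control replicate 3, 0 of the 10 and 0 of all tested genes were called. By a false discovery rate under 0.05 the authors' deposited table holds 4 of the 10 as higher in cKO, Clec5a besides the named 3, against 1.96% of all genes higher and 1.43% lower.

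The receptors changed places in the order of levels per transcript length (FPKM). In control skin the mean level fell in the order Tyrobp (53.9 FPKM), Fcer1g (37.0), Clec10a (17.4), Clec7a (4.96), Syk (4.47), Card9 (2.88), Clec4n (2.01), Clec5a (0.53), Clec4d (0.20) and Clec4e (0.05). Of neighbours in that order only Clec7a and Syk overlapped between libraries. In cKO skin Tyrobp (88.9 FPKM) and Fcer1g (59.3) still led, followed by Clec4d (28.4), Clec4n (22.5), Clec10a (18.8), Syk (6.28), Clec7a (6.20), Clec4e (6.16), Card9 (3.89) and Clec5a (2.25). There the libraries of Clec4d and Clec4n overlapped, as did those of Syk, Clec7a and Clec4e. FPKM levels rest on the length the authors used. Counts and FPKM of cKO replicate 2 imply 4968 bases for Clec4e and 1599 bases for Clec4d. The implied length exceeds the longest annotated transcript in all 10 genes, most of all for Syk, with 9359 against 5363 bases, which lowers the place of Syk. By CPM, which is not divided by length, Clec4e is therefore nearer to Clec4d than by FPKM.

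Clec10a made up 70.2% and 68.5% of the summed FPKM of the 6 receptors in control replicates 2 and 3, and 20.0% and 25.2% in cKO replicates 2 and 3. The share of Clec4d was 0.98% and 0.69% in control and 40.4% and 25.6% in cKO. Clec4n took 9.42% and 6.88% in control and 21.4% and 33.0% in cKO. The make-up thus passed from mostly Clec10a and Clec7a to mostly Clec4d and Clec4n. The summed level of the 6 receptors was 21.4 and 28.9 FPKM in control and 92.0 and 76.6 FPKM in cKO. Clec10a itself stood at 15.1 and 19.8 FPKM in control and 18.4 and 19.3 FPKM in cKO. Its share was thus smaller in cKO because the sum was larger.

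**Figure D2:**
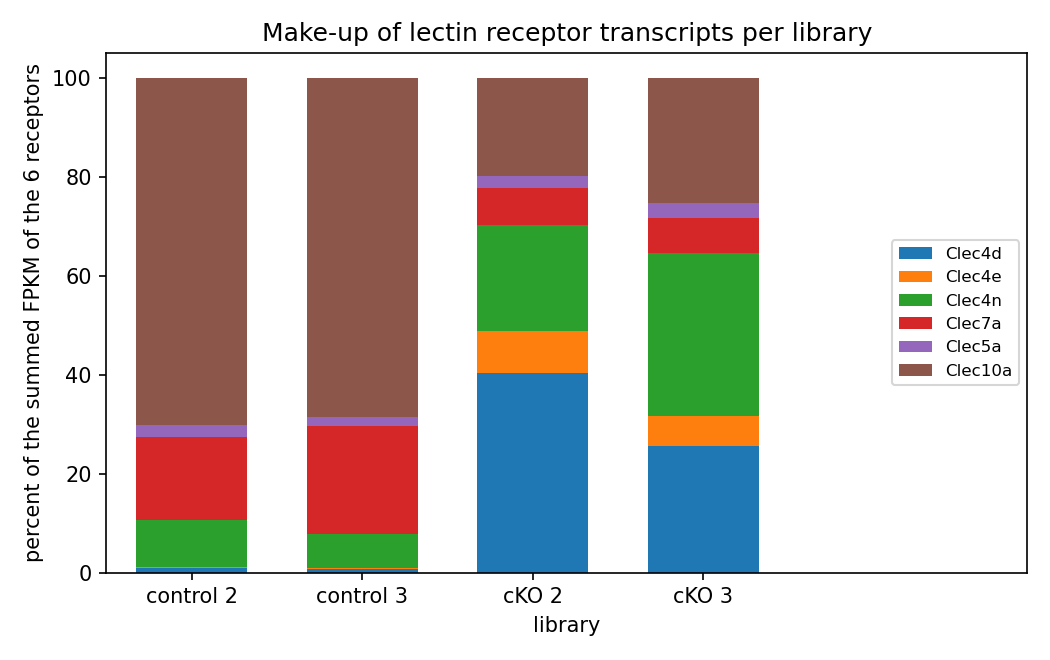
Stacked bars of the share of each of the 6 receptor genes in their summed FPKM, in percent, for each library. Clec10a takes about 70.2% and 68.5% in the control libraries, and Clec4d and Clec4n together with Clec4e take most of the cKO bars.

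Receptors and adaptors differed between the groups by unequal amounts. The FPKM ratio of Clec4d to its adaptor Fcer1g was 0.0065 and 0.0048 in control replicates 2 and 3 and 0.591 and 0.352 in cKO replicates 2 and 3. That of Clec4n to Fcer1g was 0.0626 and 0.0476 in control and 0.313 and 0.453 in cKO. The ratio between the adaptors overlapped between the groups: Tyrobp to Fcer1g was 1.34 and 1.54 in control and 1.64 and 1.34 in cKO. Clec4d to Clec4e was also close between libraries, at 4.2 and 4.0 in control and 4.80 and 4.29 in cKO, although the control FPKM of Clec4e is given as 0.05 and is rounded. The FPKM ratio of Clec5a to Tyrobp was 0.0123 and 0.00805 in control and 0.0206 and 0.0317 in cKO.

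The cKO libraries differed from each other in a gene-specific way. Clec4d was higher in replicate 2 than in replicate 3 by a scaled ratio of 1.83 (95% counting interval 1.65 to 2.04), and Clec4e by 1.64 (1.44 to 1.86). Clec4n was higher in replicate 3, by 1.33 (1.17 to 1.5), and so was Syk, by 1.28 (1.17 to 1.40). The counting interval of Clec5a, from 0.911 to 1.47 for replicate 3 over replicate 2, includes equality. In control, Clec7a, Clec10a, Fcer1g, Tyrobp and Card9 were higher in replicate 3 by ratios from 1.31 to 1.79, and the counting intervals of Clec4d, Clec4e, Clec4n and Clec5a include equality.

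In bulk skin fewer cells of a type and less RNA per cell cannot be told apart, so marker lists of leukocytes are set beside the members. The 5 pan-leukocyte markers (Ptprc, Itgb2, Cd52, Coro1a and Laptm5) summed to 226 and 385 CPM in control replicates 2 and 3 and to 337 and 394 CPM in cKO replicates 2 and 3, so their sums overlapped. Per 1000 CPM of these markers Clec4d stood at 1.47 and 0.80 in control and 178 and 82.9 in cKO, and Clec4n at 12.3 and 7.20 in control and 83.6 and 94.7 in cKO. Clec7a on the same scale stood at 40.6 and 42.7 in control and 54.7 and 38.1 in cKO, so the distance between its control libraries was small there. Clec10a stood at 188 and 147 in control and 159 and 148 in cKO. For Fcer1g the values were 121 and 93.3 in control and 164 and 129 in cKO, and for Syk 167 and 115 in control and 157 and 171 in cKO, where the groups overlapped.

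The neutrophil list was higher in cKO in its summed level. Its 10 markers summed to 28.3 and 32.3 CPM in control and to 224 and 248 CPM in cKO. In all 7 tested markers both cKO libraries lay above both control libraries, as they did in 25.1% of all tested genes. The same held for Ly6g and Camp, which were not tested, and did not hold for Mpo. The edgeR quasi-likelihood test called 1 of 7 tested markers higher, against 0.74% of all tested genes. At an unadjusted p under 0.05 all 7 were higher (10.3% of all tested genes), and 6 by DESeq2 (5.74%). The called gene was Mmp8, a neutrophil collagenase (log2 fold change 6.03 ± 0.67, edgeR adjusted p = 0.0476). This call was lost, as all were, without either control replicate. Of the 7, Retnlg, Mmp8, Ngp and Ltf passed the filter on low counts only through cKO. Their direction was thus nearly fixed in advance in each of the counts above, and the call of Mmp8 was possible in 1 direction only. Ngp, a neutrophil granule protein, had 0 counts in both control libraries and 74 and 15 counts in cKO replicates 2 and 3. Retnlg, Mmp8, Ngp, Ly6g and Ltf were higher in cKO replicate 2, as Clec4d and Clec4e were, whereas Csf3r, Cxcr2, Mmp9 and Camp were higher in cKO replicate 3. Mpo was at or near 0 in all libraries, with 1 to 3 counts.

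The 8 macrophage markers summed to 455 and 664 CPM in control and 986 and 1036 CPM in cKO. Of these 0 of 8 were called (4 higher at an unadjusted p under 0.05, and 4 higher by DESeq2). The 4 monocyte markers summed to 38.1 and 72.2 CPM in control and 109.5 and 97.4 CPM in cKO. Of these 0 of 4 were called (2 higher at an unadjusted p under 0.05, and 2 higher by DESeq2). The 6 mast cell markers, of cells that use Fcer1g for the IgE receptor, summed to 111 and 138 CPM in control and 352 and 588 CPM in cKO, with 1 called, Cpa3, and all 6 higher at an unadjusted p under 0.05 and by DESeq2, of which Tpsab1 passed the filter only through cKO. In contrast the 8 dendritic cell markers summed to 1738 and 3273 CPM in control and 504 and 744 CPM in cKO. Of these 0 of 8 were called (5 lower at an unadjusted p under 0.05, and 5 lower by DESeq2). Most of this sum came from H2-Ab1, H2-Aa and Cd74. In control replicate 2 they stood at 428, 404 and 876 CPM, and in cKO replicate 2 at 118, 133 and 235 CPM. Flt3 and Xcr1 were lower in both cKO libraries too, whereas Zbtb46 (log2 fold change -0.0056 ± 0.38), Itgax and Ccr7 overlapped between the groups. Xcr1, among the 5 lower at the unadjusted p, passed the filter only through control, so its direction was nearly fixed in advance. Over all tested genes the shares were 0.74% higher and 0.35% lower called by edgeR quasi-likelihood. At the unadjusted p they were 10.3% higher and 9.69% lower, and by DESeq2 5.74% and 4.11%. None of these lists has all its markers at 0 in any group. The part of any of these cells in the levels of the members was not tested.

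**Figure D3:**
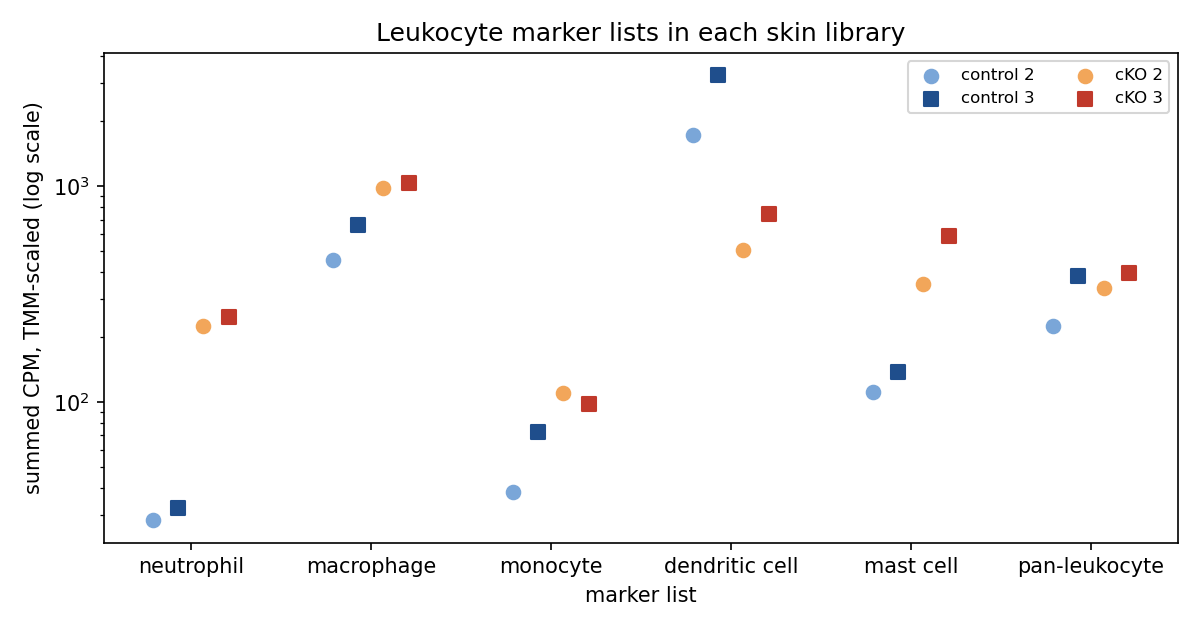
Summed TMM-scaled CPM, on a log axis, of 6 leukocyte marker lists in each library, with circles for replicate 2 and squares for replicate 3. The neutrophil sums are 28.3 and 32.3 CPM in control and 224 and 248 CPM in cKO. The dendritic cell sums, mostly H2-Ab1, H2-Aa and Cd74, are lower in cKO, and the pan-leukocyte sums overlap.

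The other receptors that signal through the same adaptors included Trem1, which rose in cKO. Of the 16 listed genes 12 were tested. By edgeR quasi-likelihood 1 was called higher and 0 lower, against 0.74% and 0.35% of all tested genes. At an unadjusted p under 0.05, 7 were higher, against 10.3% of all tested genes, and 7 were higher by DESeq2, against 5.74%. The 12 log2 fold changes were all positive, with a median of 1.81 beside -0.0014 over all tested genes. Of these 12, Trem1 and Trem3 passed the filter on low counts only with the help of their cKO counts, so that they could only be seen higher. The called gene was Trem1, a DAP12 receptor of neutrophils and monocytes, at 0.54 and 0.13 CPM in control replicates 2 and 3 and 21.4 and 26.2 CPM in cKO replicates 2 and 3 (log2 fold change 6.11 ± 0.62 SE, edgeR adjusted p = 0.0456). Its groups did not overlap, and without either control replicate 0 genes were called, Trem1 included. Fcgr3, a low-affinity receptor for IgG, differed by 1.10 ± 0.22 on the log2 scale (edgeR adjusted p = 0.0913) and Fcer1a, the ligand-binding chain of the IgE receptor, by 3.95 ± 0.48 (edgeR adjusted p = 0.0525), neither passing the threshold. Trem2, a DAP12 receptor of macrophages, and Fcgr4, an activating IgG receptor, named after their values were seen, had 2.76 ± 0.40 and 2.76 ± 0.38 without being called. Siglech, of plasmacytoid dendritic cells, had 0.02 ± 0.40.

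The other C-type lectin genes went both ways. Of 34 listed genes 28 were tested. By edgeR quasi-likelihood 1 was called higher and 1 lower, against 0.74% and 0.35% of all tested genes. At an unadjusted p under 0.05, 8 were higher and 11 lower, against 10.3% and 9.69% of all tested genes. Of the 28, Clec2e passed the filter on low counts only with the help of its cKO counts. Clec4g, Clec4b1 and Asgr2 passed only with the help of their control counts, so the direction of all of these was nearly fixed in advance. The median log2 fold change was -0.49, with 11 positive and 17 negative values. Over all tested genes the median was -0.0014, with 8699 positive and 8741 negative values. Cd209a, a relative of DC-SIGN found on dendritic cells, fell from 50.8 and 77.9 CPM in control to 10.6 and 11.7 CPM in cKO (log2 fold change -2.53 ± 0.27, adjusted p = 0.0472). Mrc2, a collagen receptor of fibroblasts and macrophages, rose from 41.1 and 36.5 CPM to 92.4 and 87.7 CPM (1.21 ± 0.14, adjusted p = 0.0490). Both calls were lost without either control replicate, when 0 of all genes were called. That of Mrc2 was also lost with library size as the only scaling and on log2 FPKM with either pseudocount, and that of Cd209a by voom. The genes with the highest mean FPKM were Clec3b (tetranectin), Clec2d and Mgl2, with log2 fold changes of -0.45 ± 0.60, -0.63 ± 0.13 and -3.10 ± 0.54 (adjusted p = 0.742, 0.0993 and 0.0786). Cd207, the Langerhans cell lectin langerin, and Clec4g, both named after their values were seen, had -3.46 ± 0.63 and -4.46 ± 0.77 without being called.

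Neighbours on the chromosome differed in direction. The 6 other listed genes of the Clec4 group, which precede Clec4n, Clec4d and Clec4e in chromosomal order, included Clec4a4 and Clec4b2, too low to be tested. Clec4a2, an inhibitory receptor of dendritic cells, and Clec4a3 had log2 fold changes of 0.50 ± 0.43 and 0.31 ± 0.39 with overlapping groups, and Clec4a1 had 0.82 ± 0.23. Clec4b1 went the other way, from 1.62 and 3.88 CPM in control to 0.32 and 0.78 CPM in cKO (-2.31 ± 0.70, edgeR adjusted p = 0.179). Clec4b1 passed the filter on low counts only with the help of its control counts, so its direction was nearly fixed in advance. Next to Clec7a lie Clec1a (0.87 ± 0.27) and Olr1 (-0.68 ± 0.39), neither called. Clec10a and Mgl2, neighbours on chromosome 11 with 0 protein-coding genes between them, encode closely related galactose-type lectins. Mgl2 stood at 97.5 and 188 CPM in control and 10.3 and 22.97 CPM in cKO without being called, and its groups did not overlap, whereas those of Clec10a did. Reads of this pair may have been split between copies, so the values of each are uncertain.

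**Figure D4:**
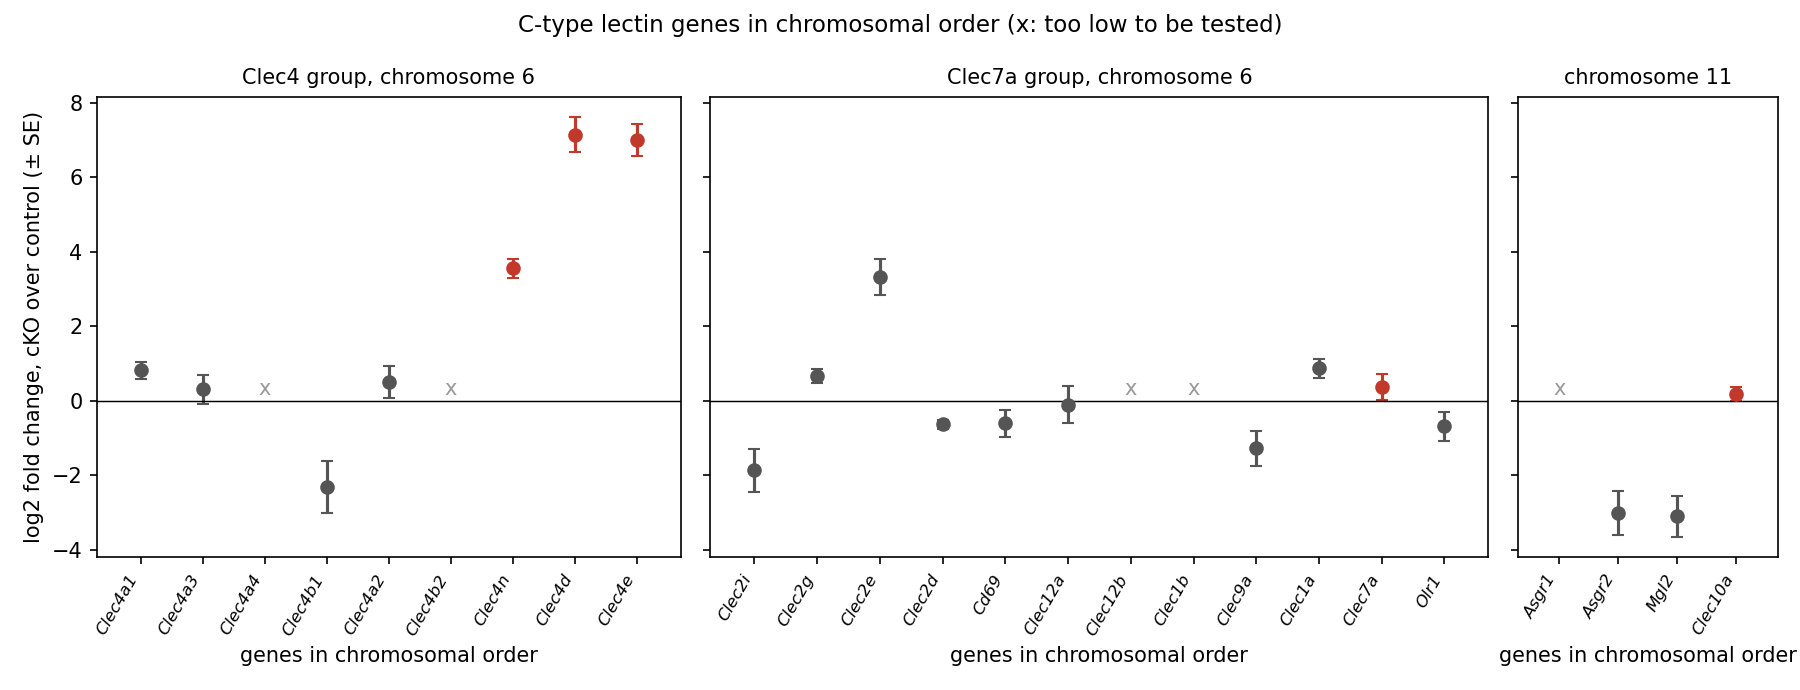
Log2 fold change of cKO over control with its SE for C-type lectin genes in chromosomal order, in the Clec4 group and the Clec7a group of chromosome 6 and around Clec10a on chromosome 11. Red points are the members, grey points other lectin genes, and x marks genes too low to be tested. Clec4n, Clec4d and Clec4e lie at 3.56, 7.15 and 7.01, while Mgl2 beside Clec10a lies at -3.10.

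Genes that carry the signal from the adaptors showed small differences in both directions. Of 25 signalling genes, all tested, 0 were called by edgeR quasi-likelihood (5 higher and 3 lower at an unadjusted p under 0.05, 0 by voom, 3 by the exact test in either direction, and 4 higher and 2 lower by DESeq2). The shares at these thresholds over all tested genes were 10.3% higher and 9.69% lower unadjusted, and 5.74% and 4.11% by DESeq2. The median log2 fold change was 0.19. The genes with the highest mean FPKM were Rela, an NF-kappaB subunit (0.14 ± 0.14), Prkcd, the kinase between Syk and Card9 (-0.72 ± 0.14), and the phospholipase gene Plcg1 (-0.06 ± 0.15). Bcl10 and Malt1, the partners of Card9, had 0.18 ± 0.14 and -0.45 ± 0.20. The Src-family kinase gene Lyn had 0.998 ± 0.282 and was named, like Bcl10 and Malt1, after its values were seen.

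Of 13 listed inhibitors 12 were tested and 0 called by edgeR quasi-likelihood (2 higher and 1 lower at an unadjusted p under 0.05, 0 by voom, and 1 each by the exact test and DESeq2), with a median log2 fold change of 0.09. These counts stand beside the same 10.3%, 9.69%, 5.74% and 4.11% of all tested genes. Fcgr2b, the inhibitory IgG receptor, had 0.79 ± 0.28, and the phosphatase genes Ptpn11 and Ptpn6 had 0.18 ± 0.13 and -0.20 ± 0.15.

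Among genes that these receptors can induce, Il1b was higher in cKO. Of 18 output genes 16 were tested, and 1 was called higher and 0 lower (edgeR quasi-likelihood; 9 higher and 2 lower at an unadjusted p under 0.05, and 9 higher and 1 lower by DESeq2). Over all tested genes the shares were 0.74% and 0.35% called, 10.3% and 9.69% at the unadjusted p, and 5.74% and 4.11% by DESeq2. The median log2 fold change was 3.68, but 8 of the 16 could not have passed the filter on their control counts alone, while Il12b, at 8 and 11 counts in control and 1 and 0 in cKO, was not tested. The called gene Il1b, for the cytokine interleukin-1 beta, stood at 8.77 and 9.82 CPM in control and at 196 and 131 CPM in cKO. Its log2 fold change was 4.14 ± 0.26 (edgeR adjusted p = 0.0332), and it was not called without either control replicate, as no gene was. Il1b, Cxcl2, Ccl3, Ccl4 and Nlrp3 were higher in cKO replicate 2, as Clec4d and Clec4e were. Il6, Cxcl1, Csf3 and Ptgs2, also higher in cKO than in control, were higher in cKO replicate 3. Many receptors induce these genes, and the share of the lectin receptors was not tested. The early response genes Egr1 and Egr3, the most abundant of the list with Il1b, had -1.37 ± 0.50 and -0.96 ± 0.37 without being called. Tnf, named after its values were seen, overlapped between groups, with 5.15 and 1.94 CPM in control and 12.98 and 1.97 CPM in cKO.

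**Figure D5:**
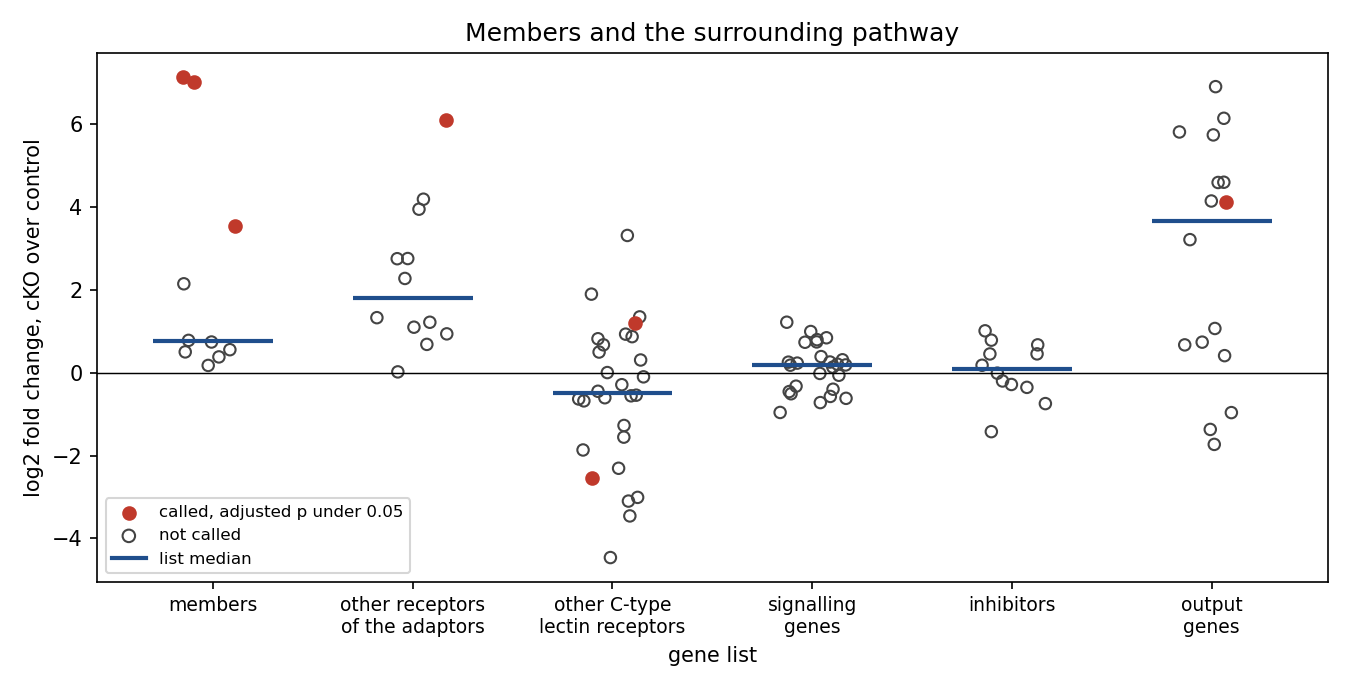
Log2 fold change of cKO over control for every tested gene of the 10 members and of 5 further lists, with called genes in red, other genes as open circles and list medians as blue lines. The medians are 1.81 for the other receptors of the adaptors, -0.49 for the other C-type lectin receptors, 0.19 for signalling genes, 0.09 for inhibitors and 3.68 for output genes.

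Over the 4 libraries the gene whose centred log2 CPM lay closest to that of Clec4e was Clec4d, at a root mean square difference of 0.124. Next came Irg1, which makes itaconate, at 0.327, Spink12 at 0.348, the neutrophil chemokine Cxcl3 at 0.424 and the formyl peptide receptor Fpr1 at 0.445. For Tyrobp the closest were Slc39a1-ps (0.0573), the leukocyte tetraspanin Cd53 (0.0658), Rab20 (0.0731), Il1a (0.0798) and Fam69a (0.0808). For Syk they were Zfyve28, Serpinb13, Sp9, Nova2 and Slfn8, between 0.0210 and 0.0281. With 4 libraries this is a description of likeness and no more.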

How the data were processed

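TruSeq libraries of oligo(dT)-selected messenger RNA were sequenced, per the labels. The expected counts, whole numbers in the deposited table, and the FPKM values per library were made by the authors; RSEM, edgeR and the build mm8 are named in the submitters' processing notes, and the aligner, annotation and use of strand were not given in the sources used here. A log2 fold change, p-value and false discovery rate in the deposited table are the authors' own. Columns headed Ctr were taken as the floxed group, the only one besides cKO. Of the identifiers, 98.9% match GENCODE M21, of the later build GRCm38, used only for names, order and overlap.

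Counts were filtered with filterByExpr, scaled with TMM and tested with edgeR 4.0.16 quasi-likelihood (R 4.3.3) without covariate, adjusted over all 17440 tested genes at 0.05. SE is the unshrunk log2 fold change over the square root of F, SD is between the 2 libraries, and printed log2 fold changes are shrunk. Counting intervals are exact at the 95% level. DESeq2 1.42.0, the edgeR exact test, limma 3.58.1 (voom, and log2 FPKM with a pseudocount of 0.1 or 1), other scalings, no filter, a replicate block and leaving out each library were alternatives. Scripts were tested on simulated data. Control replicates differed by a chi-square per gene of 24.2 and cKO replicates by 93.6, so no columns are copies.

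The members and lists were chosen with earlier results of these data known. Named genes are the members, called genes of the 5 further lists, the 3 of each list with the highest mean FPKM, and the 5 genes nearest Clec4e, Tyrobp and Syk; list and marker genes beyond these were named after their values were seen. Of the listed inhibitors, 1 symbol was not matched.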

Additional observations from a re-analysis of the deposited data

How the results depend on the processing

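Of 130 values of members under alternatives, 116 kept the direction and the side of the threshold. Clec10a ran from -0.017 without control replicate 2 to 0.41 without control replicate 3. Clec4d, Clec4e and Clec4n lost their call without either control replicate, and Clec5a gained a call under 7 of 13 alternatives; the cause was not tested. The log2 fold change ran from 4.54 to 7.52 for Clec4d, from 2.73 to 7.34 for Clec4e (lowest on log2 FPKM with a pseudocount of 1, which understates low genes) and from 2.96 to 3.74 for Clec4n. Leaving out 1 library each, the calls ran from 0 to 4 members, 0 to 1664 genes in all, 0 to 8 other lectin genes, 0 to 5 other receptors of the adaptors, 0 to 1 signalling genes and 0 to 10 output genes, and stayed at 0 for inhibitors. In the order all genes, other lectins, other adaptor receptors and output genes, the calls were 883, 8, 5 and 7 without the filter, 1769, 11, 7 and 10 by DESeq2, and 1811, 12, 7 and 10 by the exact test. By the exact test 3 signalling genes and 1 inhibitor were called, by DESeq2 6 and 1. On log2 FPKM, all genes gave 295 and 383 calls and the adaptor receptors 3 and 5 with pseudocounts of 0.1 and 1, other lectins 1 with 0.1, and output genes 2 with 1. With library size alone other lectins had 1 call and adaptor receptors 2; voom called 1 other lectin. The replicate numbers are not known to pair samples. Replicate differences correlated between the groups across genes (r = 0.414, 17440 genes, which are not independent). With the replicate block 1177 genes, 4 members, 10 other lectins, 6 adaptor receptors, 2 signalling genes, 1 inhibitor and 10 output genes were called. With 5 to 8 control counts, Clec4d and Clec4e levels in control are limited by depth.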

Other observations

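Among lectin genes outside the members, values named after they were seen went both ways. Clec14a, of endothelial cells, stood at 6.03 and 6.87 CPM in control replicates 2 and 3 against 15.5 and 32.6 CPM in the cKO replicates, and Clec2e at 0.46 and 0.31 CPM in control and 2.93 and 4.83 CPM in cKO. Asgr2 stood at 2.08 and 3.44 CPM in control and 0.19 and 0.48 CPM in cKO. Groups did not overlap in these genes, and none was called by edgeR quasi-likelihood (adjusted p = 0.106, 0.0608 and 0.0923). Over all tested genes 25.1% had both cKO libraries above both control libraries, and 27.7% had them below. Clec2e passed the filter on low counts only with the help of its cKO counts, and Asgr2 only with its control counts. The direction of both was thus nearly fixed in advance. The mannose receptor gene Mrc1 stood at 132 and 180 CPM in control and 295 and 301 CPM in cKO (adjusted p = 0.105).

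The length that counts and FPKM imply for Clec4e, 4968 bases in cKO replicate 2, is near the longest of its 7 annotated transcripts, 4804 bases, the shortest being 370 bases (GENCODE M21). An FPKM level based on a shorter transcript would be higher, so the place of Clec4e among the receptors per length depends on the transcript model.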
